A study of Mus musculus with 8 samples.

Results

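The exocytosis machinery is the set of proteins that tether a secretory granule at the plasma membrane, prime it, sense calcium and fuse it. The 43 genes described here were chosen by symbol and comprise synaptotagmins, synaptotagmin-like proteins, SNAREs, the Rab3 and Rab27 GTPases and their partners. Each symbol matched 1 of the 55414 gene identifiers counted, and all 43 were among the 20509 genes that passed the filter on low counts. RNA was sequenced from pancreatic islets of C57BL/6 mice at 5 weeks of age, in 4 libraries labelled TG and 4 labelled WT. By the labels, both groups carried ATF4 TG(+/-), and the TG mice were Ins2 cre(+/-) while the WT mice were Ins2 cre(-/-). The driver takes its name from the insulin 2 gene, which is expressed in beta cells. No group with the Cre driver but without the transgene was analysed here, so effects of Cre itself and of the transgene cannot be told apart. Whether the libraries of 1 group were taken from different mice is not said in the labels. The p-values therefore reflect the spread among these libraries alone, which may be technical.

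A beta cell releases insulin when calcium enters and granules already held at the membrane fuse. Granules carry Rab27a and Rab3, whose effectors, among them granuphilin (Sytl4) and Noc2 (Rph3al), link them to the membrane. Munc13 and Munc18 proteins then prepare the SNAREs, namely a syntaxin and a SNAP25-type protein on the plasma membrane and a VAMP on the granule. Many synaptotagmins bind calcium and trigger the zippering of these SNAREs.

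The libraries held 16521087 to 22499999 gene counts, and a count of 0 in a library allows up to 3 counts, or 0.133 to 0.182 CPM (counting error only). CPM, the usual counts relative to library size, are given on library sizes scaled by the TMM method. Atf4 itself was lower in the TG libraries (261 ± 19.8 CPM, SD, n = 4) than in the WT libraries (352 ± 21.1 CPM), a log2 change of −0.43 (SE 0.0855, edgeR adjusted p = 0.00226). Transgene transcripts need not be counted under this gene, so it does not check the labels. Defining markers of beta cells were present and 8 of 8 were lower in TG, with a summed level of 48859 to 62227 CPM against 100294 to 120764 CPM in WT. Of 10 endothelial markers 10 were higher (summed 1218 to 1278 against 515 to 905 CPM), as were 6 of 10 stromal and mural markers (3359 to 6527 against 841 to 2813 CPM). Duct markers counted 5 of 7 higher (758 to 1037 against 374 to 428 CPM), immune markers 4 of 7 tested (118 to 159 against 82.4 to 120 CPM, all 8 listed) and Schwann and nerve markers 2 of 8 (183 to 226 against 145 to 212 CPM). No marker of the alpha (4), delta and PP (4) or acinar (10) lists was called, and acinar markers summed to between 6992 and 44710 CPM in TG and between 1426 and 13562 CPM in WT, highest in TG replicate 1. No listed marker was at 0 in all 8 libraries. In such whole islets, fewer cells of a type and less RNA per cell cannot be told apart.

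Granuphilin (Sytl4) and Syt14 fell, Rab27b rose, and the fusion SNAREs Snap25, Stx1a and Vamp2 were not called. Of the 43 genes, 17 (39.5%) were called at an edgeR quasi-likelihood adjusted p under 0.05, where 20.1% of all tested genes were. Of these, 11 were lower in TG, against a background of 8.06% lower, and 6 were higher, against 12.1% higher. By step, 4 of 13 docking genes were lower and 2 higher, 3 of 6 priming genes lower and 0 higher, 3 of 13 calcium-sensing genes lower and 3 higher, and 1 of 11 fusion genes lower and 1 higher. The calcium-sensing list also holds Syt11, Syt13 and Syt14, described below as lacking calcium-binding residues or not acting as calcium sensors. Being on this list does not by itself mean that a gene's protein senses calcium. The steps were not tested against each other, and the share called in the fusion step (18.2%) is near that of all tested genes. The members' median log2 fold change was −0.05, with medians of −0.18, −0.15, 0.04 and −0.05 for the steps in this order. The extremes were Sytl4 (−2.20) and Rab27b (1.86), and the other 15 called genes changed by less than 1 on the log2 scale. The groups did not overlap for 15 members, 9 of them lower and 6 higher in TG, where 22.6% of all tested genes were so separated (9.94% lower and 12.6% higher). With the endothelial and stromal markers' average log2 level as a covariate, 2 members were called lower and 0 higher, as described further on.

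**Figure D1:**
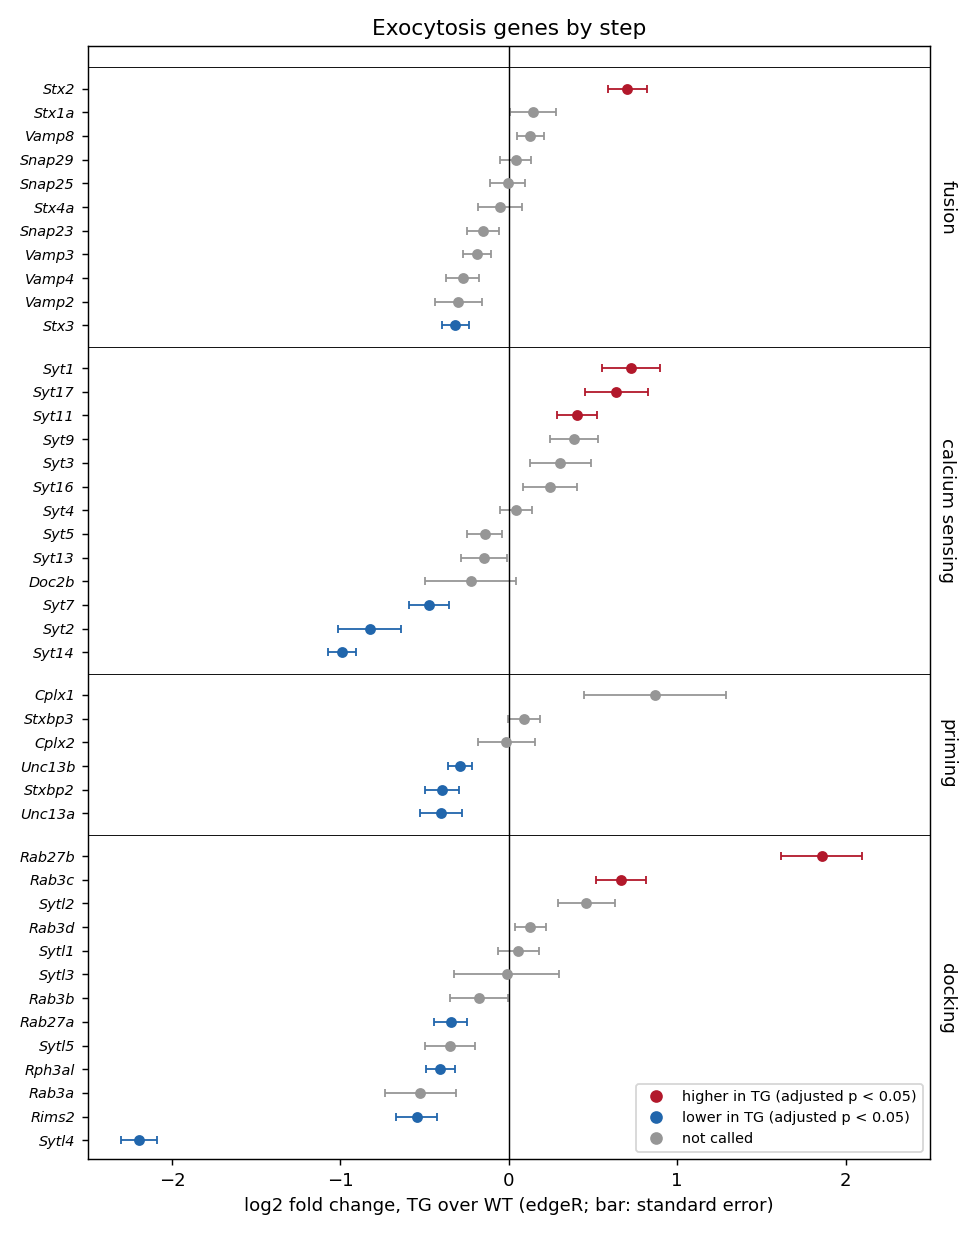
Log2 fold changes (x axis, TG over WT) of all 43 exocytosis genes, grouped by step, with the standard error as bars and colours for genes called higher, called lower or not called. Sytl4 lies at −2.20 and Rab27b at 1.86. Of the 11 fusion genes 2 were called (18.2%), near the 20.1% of all tested genes.

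Per length of transcript, Syt13 and Sytl4 led in WT islets, and Sytl4 dropped down the order in TG. Levels between genes were compared as RPKM, which divides CPM by the kilobases of the union of a gene's exons. Syt13, a synaptotagmin that lacks calcium-binding residues, stood at 220 ± 26.8 RPKM in WT and 199 ± 39.4 RPKM in TG (SD, n = 4) and ranked first of 43 in both. Sytl4 ranked 2 in WT at 130 ± 9.98 RPKM and 8 in TG at 28.5 ± 3.76 RPKM. In TG its range of 25.6 to 34.0 RPKM overlapped those of Sytl5 (25.0 to 42.6), Rab27a (26.5 to 35.7) and Vamp4 (23.3 to 30.1), its neighbours in the order. Cplx2 followed in WT at 60.6 ± 4.59 RPKM, ahead of Vamp8 (47.4 ± 2.57), Sytl5 (42.0 ± 6.30), Rab3d (40.8 ± 3.34), Rab27a (37.7 ± 2.31) and Syt4 (32.6 ± 3.70). From Vamp8 to Syt4, each gene's WT range overlapped that of the next, so the order among these neighbours is not beyond their spread. At the other end lay Sytl3 (0.527 RPKM in WT), Sytl2 (0.970), Syt17 (1.02) and Rab27b (1.03), and Rab27b moved from rank 40 in WT to rank 34 in TG. The union of all annotated exons is longer than most single transcripts, so RPKM of genes with many isoforms are understated.

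The promoter windows of the members whose calls held under every processing alternative, Sytl4 and Syt14, are shown with the only member window that held the ATF4 composite element. They are the 250 bases before a RefSeq start on GRCm38.p6, printed on the gene's strand, with any match to a searched motif in capitals. RefSeq windows were matched for 31 of the 43 genes, with 37 starts in all. Sytl4 lies at chrX:133981813-133982062 (minus strand), Syt14 at chr1:193035776-193036025 (minus strand) and the second listed start of Syt1 at chr10:109009112-109009361 (minus strand).
Sytl4: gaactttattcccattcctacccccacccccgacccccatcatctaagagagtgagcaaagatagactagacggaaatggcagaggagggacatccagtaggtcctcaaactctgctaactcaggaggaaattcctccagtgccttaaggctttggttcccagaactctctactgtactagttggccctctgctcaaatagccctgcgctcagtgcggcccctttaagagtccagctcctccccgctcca
Syt14: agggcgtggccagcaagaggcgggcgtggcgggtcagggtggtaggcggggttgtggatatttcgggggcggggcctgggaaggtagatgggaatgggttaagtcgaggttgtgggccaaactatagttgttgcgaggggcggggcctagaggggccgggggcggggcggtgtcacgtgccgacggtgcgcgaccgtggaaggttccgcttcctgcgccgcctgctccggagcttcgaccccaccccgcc
Syt1, second start: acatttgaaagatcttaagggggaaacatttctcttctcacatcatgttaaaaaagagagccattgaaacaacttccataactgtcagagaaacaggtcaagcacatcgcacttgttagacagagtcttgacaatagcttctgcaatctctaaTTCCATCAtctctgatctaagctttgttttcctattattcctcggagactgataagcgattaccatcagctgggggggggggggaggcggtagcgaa
The C/EBP-ATF response element (CARE), which ATF4 binds with a partner, was searched as TGATGNAA on both strands and was found in 1 of the 37 windows, against 3.45% of 32851 windows of the same length over all genes. This match, TTCCATCA on the printed strand, starts 97 bases before the Syt1 start. The cyclic AMP response element TGACGTCA, a palindrome, was in 1 window (Stxbp3), against 1.55% of all. The half-site of the MAF recognition element, TGCTGAC, was searched on both strands and was in 1 window (Sytl5), against 3.81% of all. The Sytl4 and Syt14 windows held none of the 3 motifs, which says only that these letters are not in these 250 bases.

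At the docking step, Sytl4 fell the most of all 43 genes. Sytl4 (ENSMUSG00000031255) encodes granuphilin, a Rab27a effector on insulin granules that binds the syntaxin complex at the membrane. Its level was 138, 174, 131 and 140 CPM in TG replicates 1 to 4 and 628, 641, 660 and 744 CPM in WT replicates 1 to 4. Every TG library was below every WT library, and the highest TG value lay far under the lowest WT value. The fold change was 4.58-fold lower (log2 −2.20, SE 0.105, edgeR adjusted p = 1.53e-09), and it ranged from −2.29 to −2.08 over the 17 alternatives.

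Of the 2 Rab27 GTPases, Rab27a fell and Rab27b rose. Rab27a (ENSMUSG00000032202), the GTPase to which granuphilin binds, stood at 107, 138, 113 and 103 CPM in TG and 152, 145, 154 and 134 CPM in WT. TG replicate 2 reached into the WT range, and the other TG libraries lay under it. The change was −0.34 (SE 0.0981, adjusted p = 0.0220, edgeR), and the call was lost without TG replicate 1 (−0.30, adjusted p = 0.0596), WT replicate 1 (−0.33, adjusted p = 0.0576) or WT replicate 2 (−0.35, adjusted p = 0.0511). Its close relative Rab27b (ENSMUSG00000024511), known from platelets and exocrine glands among other secretory cells, stood at 53.7, 25.3, 45.6 and 35.7 CPM in TG and 14.4, 9.35, 11.8 and 8.49 CPM in WT. All TG libraries were above all WT libraries, with a wide spread within TG. Rab27b rose 3.63-fold (log2 1.86, SE 0.242, adjusted p = 0.000447, edgeR). In the same 4 TG libraries the duct markers summed to 1037, 758, 925 and 781 CPM, in the same order as Rab27b. In WT replicates 1 to 4 they summed to 374, 426, 428 and 383 CPM, and the order was not shared. WT replicate 1, the highest WT library for Rab27b, had the lowest duct sum. The stromal and mural markers summed to 6527, 3680, 4586 and 3359 CPM in TG and 1322, 841, 2813 and 911 CPM in WT. The part of the duct markers in this result was not tested, and that of the stromal markers only in the covariate fit described further on.

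Among the Rab3 GTPases, which cycle on and off granules, Rab3c (ENSMUSG00000021700) was the only called member. It stood at 38.9, 36.8, 51.8 and 41.4 CPM in TG and 35.2, 24.6, 22.5 and 23.9 CPM in WT (log2 fold change 0.67, SE 0.148, adjusted p = 0.00527, edgeR). The groups did not overlap, although WT replicate 1 came within 2 CPM of the lowest TG library. Rab3a, the main neuronal and neuroendocrine form, stood at 33.1, 65.2, 47.8 and 35.0 CPM in TG and 55.9, 69.8, 76.0 and 59.1 CPM in WT. Its change of −0.52 (SE 0.208, adjusted p = 0.115) did not pass, and TG replicate 2 alone among TG libraries lay within the WT range. Leaving that library out made it pass (−0.76, adjusted p = 0.00316), as did testing unfiltered counts (−0.54, adjusted p = 0.000104) and DESeq2 (−0.53, adjusted p = 0.0219). Rab3b (−0.18, SE 0.173) and Rab3d (0.13, SE 0.0918), the latter common on exocrine granules, were not called, with 12.2 to 23.3 against 18.1 to 24.6 CPM and 172 to 211 against 159 to 191 CPM.

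Other Rab effectors and scaffolds of docking were lower or did not pass. Rph3al (ENSMUSG00000020847), which encodes Noc2, an effector of Rab3 and Rab27, stood at 63.8, 68.7, 60.9 and 63.4 CPM in TG and 85.1, 92.3, 83.3 and 79.2 CPM in WT. The groups were well apart and each was tight (log2 fold change −0.41, SE 0.0845, adjusted p = 0.00330, edgeR). Rims2 (ENSMUSG00000037386) encodes RIM2, a scaffold that joins Rab3, Munc13 and calcium channels. It stood at 84.4, 99.3, 106 and 124 CPM in TG and 156, 153, 123 and 173 CPM in WT (−0.55, SE 0.122, adjusted p = 0.00557), and TG replicate 4 just passed WT replicate 3. Of the other synaptotagmin-like proteins, which bind Rab27, none was called. Sytl5 measured 57.4 to 98.0 CPM in TG and 85.4 to 117 CPM in WT (−0.35, SE 0.148, adjusted p = 0.125), and passed on unfiltered counts and when TG replicate 4 was left out (−0.37, adjusted p = 0.00986, and −0.53, adjusted p = 0.0104). Sytl2, an effector described in alpha cells, measured 15.8 to 22.3 CPM in TG and 10.7 to 17.1 CPM in WT (0.46, SE 0.170, adjusted p = 0.0710), and passed without WT replicate 1 (0.59, adjusted p = 0.0347). Sytl1 (25.7 to 31.3 against 23.0 to 30.8 CPM) and Sytl3 (1.54 to 4.21 against 2.51 to 2.90 CPM) overlapped throughout, with changes of 0.06 and −0.01.

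**Figure D2:**
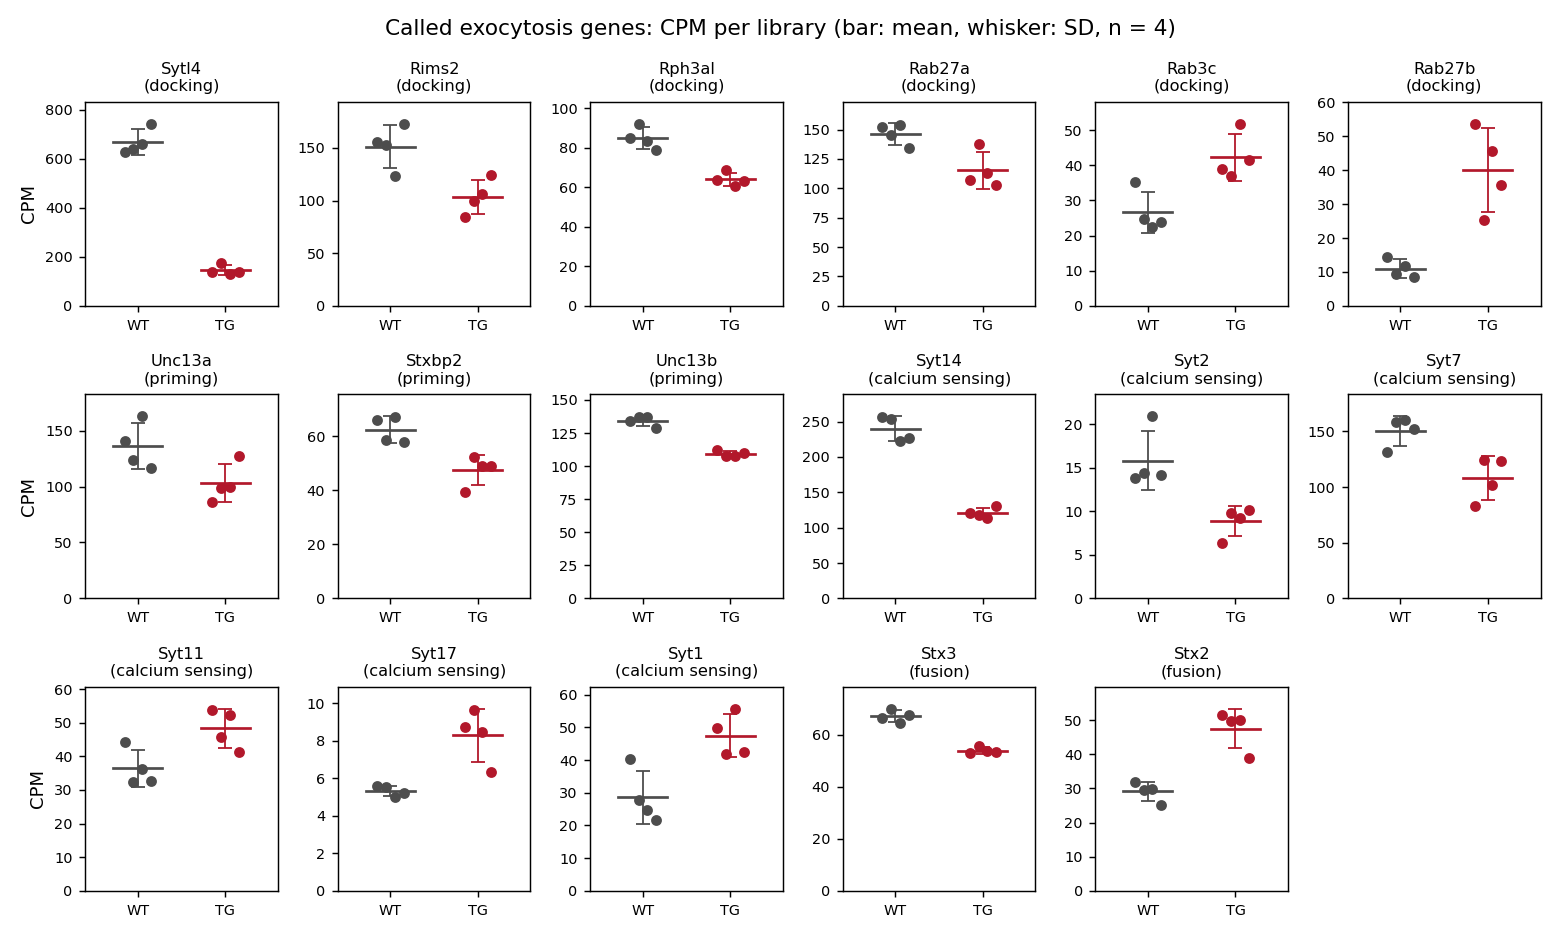
CPM (y axis, from 0) of the 17 called exocytosis genes in each library, WT in grey and TG in red, with the mean as a bar and the SD as a whisker (n = 4). Sytl4 falls from 628 to 744 CPM to 131 to 174 CPM, Syt14 from 222 to 257 CPM to 114 to 130 CPM, and Rab27b rises from 8.49 to 14.4 CPM to 25.3 to 53.7 CPM.

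At the priming step, Unc13a, Unc13b and Stxbp2 were modestly lower. A further Munc13 gene outside the 43, Unc13d, named after its values were seen, was low but higher in TG (3.54 ± 0.81 against 1.83 ± 0.215 CPM, SD, n = 4; 0.95, edgeR adjusted p = 0.0235). Unc13a (ENSMUSG00000034799), or Munc13-1, opens syntaxin for SNARE assembly. It stood at 86.5, 99.0, 99.9 and 127 CPM in TG and 141, 124, 163 and 117 CPM in WT. The groups overlapped through TG replicate 4 and the 2 lower WT libraries (−0.40, SE 0.124, adjusted p = 0.0328, edgeR). The call was lost without TG replicate 1 (−0.32), TG replicate 2 (−0.39), TG replicate 3 (−0.42), WT replicate 1 (−0.39) or WT replicate 3 (−0.31), with adjusted p between 0.0576 and 0.0883. Unc13b (ENSMUSG00000028456), or Munc13-2, stood at 112, 108, 108 and 110 CPM in TG and 134, 137, 137 and 129 CPM in WT. Its change was smaller, −0.29 (SE 0.0737, adjusted p = 0.0119), but the libraries of each group lay close together and the groups were apart.

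Munc18 proteins hold syntaxins and guide their assembly. Stxbp2 (ENSMUSG00000004626, Munc18-2) stood at 39.4, 52.3, 49.0 and 49.1 CPM in TG and 66.1, 58.5, 67.3 and 57.9 CPM in WT, with every TG library lower (−0.40, SE 0.103, adjusted p = 0.0134, edgeR). Stxbp3 (Munc18-3), the partner of syntaxin 4, measured 63.7 to 77.9 CPM in TG and 59.9 to 71.2 CPM in WT (0.09, SE 0.0928). Complexins bind the assembled SNAREs and hold fusion until calcium arrives. Cplx2, abundant per length, measured 204, 337, 257 and 385 CPM in TG and 267, 318, 310 and 300 CPM in WT. The TG libraries fell on both sides of the WT range (−0.01, SE 0.169), and the sign turned when TG replicate 1 (0.13), TG replicate 3 (0.02) or WT replicate 2 (0.01) was left out. Cplx1 was low, at 4.22 to 6.48 CPM in TG and 6.14, 2.49, 1.25 and 1.59 CPM in WT (0.87, SE 0.422, adjusted p = 0.183), and passed without WT replicate 1, its high WT library (1.55, adjusted p = 0.00397), on unfiltered counts (0.83, adjusted p = 0.0283) and by limma-voom (1.11, adjusted p = 0.0454).

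Among the genes listed under calcium sensing, Syt14 showed the clearest fall, and Syt7, a high-affinity sensor used in insulin secretion, fell less. Syt14 (ENSMUSG00000016200), a synaptotagmin without the usual calcium-binding residues, stood at 121, 118, 114 and 130 CPM in TG and 257, 253, 222 and 227 CPM in WT. The groups were far apart and each was tight (1.99-fold lower, log2 −0.99, SE 0.0838, adjusted p = 1.24e-06, edgeR). Syt7 (ENSMUSG00000024743) stood at 82.8, 124, 102 and 123 CPM in TG and 131, 158, 160 and 152 CPM in WT. All TG libraries were lower, and the highest of them approached WT replicate 1 (−0.47, SE 0.120, adjusted p = 0.0117). Syt2 (ENSMUSG00000026452), a fast sensor of some neurons, was low and fell from 13.8, 14.4, 20.9 and 14.1 CPM in WT to 6.32, 9.82, 9.27 and 10.1 CPM in TG (−0.83, SE 0.186, adjusted p = 0.00551).

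Syt1, Syt11 and Syt17 were higher in TG. Syt1 (ENSMUSG00000035864), the fast sensor of most synapses, stood at 49.8, 41.9, 55.7 and 42.4 CPM in TG and 40.3, 27.7, 24.8 and 21.6 CPM in WT (0.73, SE 0.172, adjusted p = 0.00998, edgeR). The groups did not overlap, and WT replicate 1 came close to the lowest TG libraries. Syt11 (ENSMUSG00000068923), which does not act as a calcium sensor, stood at 53.8, 45.9, 52.4 and 41.2 CPM in TG and 44.3, 32.5, 36.3 and 32.8 CPM in WT (0.41, SE 0.121, adjusted p = 0.0277). WT replicate 1 lay within the TG range, and the call was lost without TG replicate 1 (0.36), TG replicate 3 (0.33), WT replicate 2 (0.35) or WT replicate 4 (0.35) and with acinar markers as a covariate (0.32), with adjusted p between 0.0768 and 0.131. Syt17 (ENSMUSG00000058420) measured 6.32 to 9.65 CPM in TG and 5.00 to 5.60 CPM in WT (0.64, SE 0.186, adjusted p = 0.0243). Its call was lost without TG replicate 1 (0.62), TG replicate 2 (0.56), TG replicate 3 (0.59), WT replicate 2 (0.65), WT replicate 3 (0.60) or WT replicate 4 (0.62) and with the acinar covariate (0.61), with adjusted p between 0.0509 and 0.0840.

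The other genes listed under calcium sensing were not called. Syt9, a sensor described in insulin-secreting cells, measured 17.6, 19.6, 23.3 and 23.0 CPM in TG and 17.5, 17.2, 16.3 and 12.6 CPM in WT. The groups did not overlap, by a margin of 0.1 CPM, and the change of 0.39 (SE 0.142) had an adjusted p = 0.0675 by edgeR. It passed without TG replicate 1 (0.47, adjusted p = 0.0436) and with a filter of 1 CPM in 4 libraries (0.40, adjusted p = 0.0451). The abundant Syt13 measured 539, 887, 788 and 777 CPM in TG and 685, 869, 918 and 839 CPM in WT (−0.15, SE 0.138), with TG replicate 1 low. Syt4 measured 122 to 146 against 111 to 140 CPM (0.04) and Syt5 measured 55.5 to 66.1 against 56.2 to 73.8 CPM (−0.14), each with overlapping groups. Syt4 turned negative without TG replicate 4 (−0.05) and without WT replicate 2 (−0.02). Syt3 (0.31), Syt16 (0.24) and Doc2b (−0.23), the last a high-affinity sensor, were all under 13 CPM in every library, and each overlapped between groups.

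At the fusion step, the SNAREs Snap25, Stx1a and Vamp2 were not called. Snap25 (ENSMUSG00000027273) measured 93.0, 108, 111 and 121 CPM in TG and 120, 99.7, 94.0 and 122 CPM in WT, with a log2 fold change of −0.01 (SE 0.106, adjusted p = 0.978, edgeR). Stx1a, its plasma membrane partner, measured 18.9, 22.3, 18.1 and 21.9 CPM in TG and 22.5, 18.4, 16.7 and 15.9 CPM in WT (0.14, SE 0.136, adjusted p = 0.525). For both genes the 2 groups covered nearly the same range, and the sign of Snap25 turned without TG replicate 1 (0.06), WT replicate 1 (0.04) or WT replicate 4 (0.05), with a filter of 1 CPM in 4 libraries (0.01) and with the acinar covariate (0.09). Vamp2, the granule SNARE, measured 15.9, 20.1, 16.6 and 13.8 CPM in TG and 23.2, 21.2, 17.7 and 19.6 CPM in WT. It leaned lower, with overlap, and did not pass (−0.30, SE 0.140, adjusted p = 0.155).

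Stx2 and Stx3 were the called fusion genes and went opposite ways. Stx2 (ENSMUSG00000029428), a widely expressed plasma membrane syntaxin, stood at 51.4, 49.7, 50.1 and 38.9 CPM in TG and 32.0, 29.5, 29.9 and 25.2 CPM in WT (0.70, SE 0.114, adjusted p = 0.000530, edgeR). Every TG library was higher, TG replicate 4 by the least. Stx3 (ENSMUSG00000041488), which also acts in granule fusion, stood at 52.9, 55.7, 53.9 and 53.3 CPM in TG and 66.4, 70.1, 64.5 and 67.7 CPM in WT (−0.32, SE 0.0805, adjusted p = 0.0118). Its groups were separate and very tight. Vamp3 was also lower in every TG library (55.6 to 59.6 against 62.4 to 70.8 CPM), yet its change of −0.19 (SE 0.0825) had an adjusted p = 0.125. Vamp4, a SNARE of the trans-Golgi network, measured 106 to 137 against 129 to 158 CPM (−0.27, SE 0.0973, adjusted p = 0.0602). It passed without TG replicate 4 (−0.38, adjusted p = 0.0122), without WT replicate 3 (−0.33, adjusted p = 0.0335), with upper-quartile scaling (−0.31, adjusted p = 0.0280) and with DESeq2 (−0.28, adjusted p = 0.0431). Stx4a (33.9 to 43.0 against 31.9 to 45.3 CPM), Vamp8 (109 to 124 against 104 to 118 CPM), Snap23 (47.6 to 55.4 against 51.6 to 61.1 CPM) and Snap29 (32.7 to 36.9 against 32.9 to 35.9 CPM) overlapped between groups, with changes of −0.05, 0.13, −0.15 and 0.04.

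The ratio of 2 paralogues within a library does not depend on how libraries are scaled, and 6 such ratios were compared. In whole islets such a ratio can still move with the mix of cells, and marker levels of several cell types differed between the groups. The part of the cell mix in these ratios was not tested. Rab27a over Rab27b had a log2 ratio of 0.99, 2.45, 1.30 and 1.52 in TG and 3.39, 3.95, 3.70 and 3.98 in WT. Its mean was lower in TG by a log2 difference of −2.19, with no overlap. Rab3a over Rab3d differed by −0.69 (−2.44 to −1.70 against −1.52 to −1.24) and Vamp2 over Vamp8 by −0.43 (−3.17 to −2.62 against −2.60 to −2.23), also without overlap. Each of these 3 had p = 0.0286 in an exact two-sided permutation test, the smallest that 70 arrangements allow, and p = 0.0571 after Benjamini-Hochberg adjustment over the 6 ratios, so none was called. Ratios of Snap25 over Snap23 (difference 0.15), Stx1a over Stx4a (0.19) and Unc13a over Unc13b (−0.12) overlapped between groups (exact permutation p = 0.343, p = 0.371 and p = 0.486). Snap25 over Snap23 ranged from 0.75 to 1.20 in TG and from 0.62 to 1.15 in WT.

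**Figure D3:**
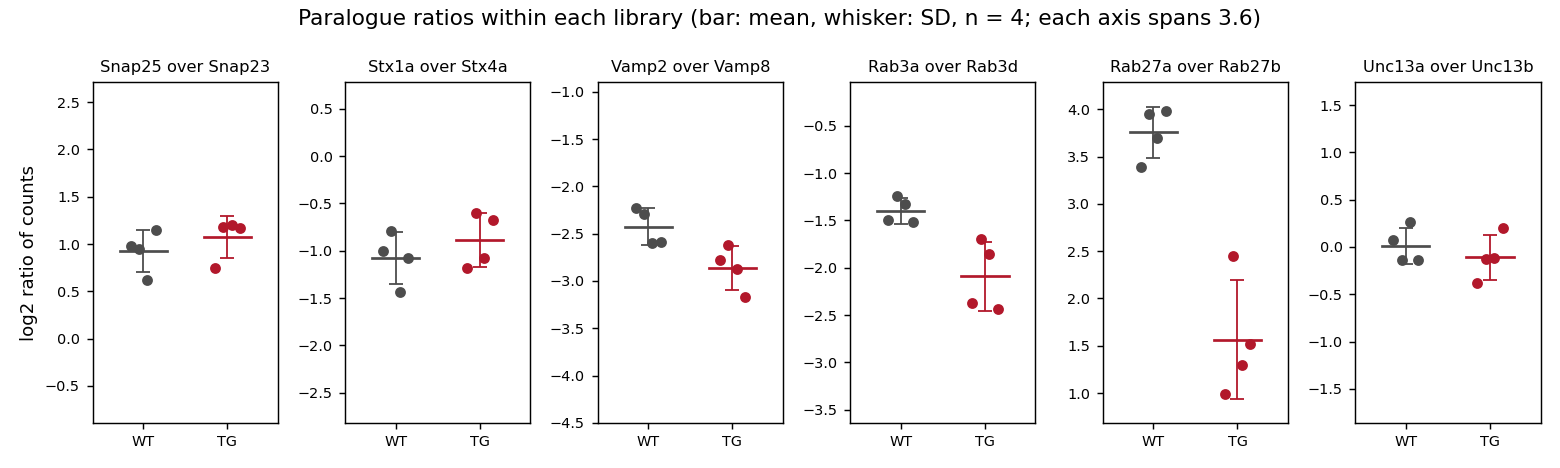
Log2 ratio of counts of 2 paralogues in each library (y axis, each panel spanning the same height), WT in grey and TG in red, with mean and SD (n = 4). Rab27a over Rab27b lies between 0.99 and 2.45 in TG and between 3.39 and 3.98 in WT, while Snap25 over Snap23 covers 0.62 to 1.20 in both groups together.

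Genes of other cell types moved with the groups, and the fit with vascular and stromal markers as a covariate left few calls. Standard errors were 1.91-fold larger at the median with it, and 375 genes (1.83%) were called, 0.717% higher and 1.11% lower. Sytl4 stood at −2.08 (SE 0.193, adjusted p = 7.64e-06, edgeR) and Syt14 at −0.84 (SE 0.171, adjusted p = 0.0148). These 2 members kept their calls, and the other 15 lost theirs, while 11 of the 43 had an unadjusted p under 0.05. All 17 kept their sign. Rims2 was at −0.01 (SE 0.207, adjusted p = 0.992) and Syt11 at 0.15 (SE 0.259), each much nearer 0 than with group alone. The covariate did not overlap between groups (6.84 to 7.21 in TG, 5.12 to 6.41 in WT). WT replicate 3 had the highest WT value of the covariate and the lowest WT level of Rims2 (123 CPM). Whether the Rims2 estimate rests on that library was not tested. Rab27b stood at 1.15 (SE 0.474, adjusted p = 0.364), Stx2 at 0.52 (SE 0.247) and Syt1 at 0.66 (SE 0.392). Changes as large as before or larger were estimated for 7 called members, namely Syt2 (−1.24, SE 0.328, adjusted p = 0.0737), Unc13a (−0.73, SE 0.227, adjusted p = 0.152), Rab3c (0.77), Stxbp2 (−0.51), Rab27a (−0.43), Unc13b (−0.34) and Syt17 (0.71). Syt7 (−0.37), Rph3al (−0.33) and Stx3 (−0.20) were smaller, with adjusted p between 0.543 and 0.752.

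**Figure D4:**
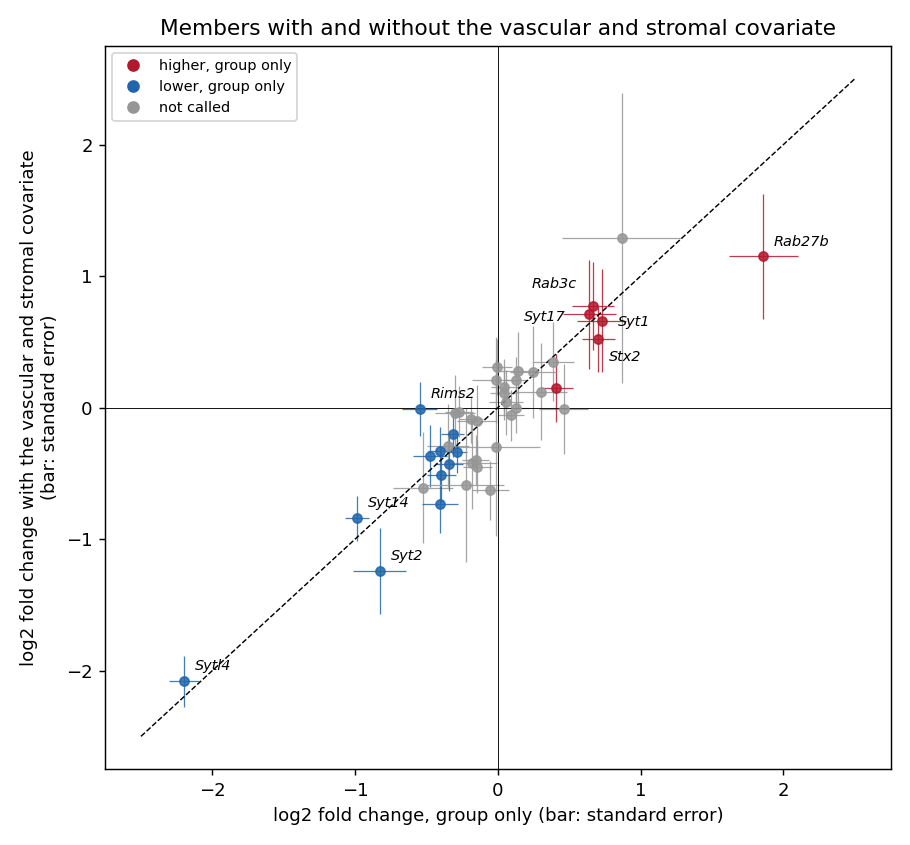
Log2 fold changes of the 43 genes with group alone (x axis) and with the vascular and stromal covariate (y axis), with standard errors as bars and the line of equal values dashed. Sytl4 stays near the line at −2.08 and Syt14 at −0.84, Rims2 moves to −0.01, and vertical bars are longer than horizontal ones.

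Other genes of the same pathway were taken from a list of which 77 were found in the tables and 72 tested. Of these, 14 were lower, against 8.06% of all tested genes, and 9 were higher, against 12.1% (31.9% called against 20.1%; median −0.04). Rab effectors, regulators and motors counted 4 of 17 lower and 2 higher, active zone proteins 3 of 10 lower and 0 higher, and further priming factors 4 of 11 lower and 2 higher. Further calcium sensors counted 0 of 4 lower and 2 higher, further SNAREs and their recycling factors 2 of 20 lower and 3 higher, and the exocyst, a tethering complex, 1 of 10 lower and 0 higher. The shares called among these SNAREs (25.0%) and the exocyst (10%) were near or under that of all tested genes. The lowest adjusted p among lower genes was that of Rab37, a granule GTPase, at 28.1, 34.1, 25.8 and 30.7 CPM in TG and 78.3, 84.2, 71.6 and 68.6 CPM in WT (−1.35, SE 0.108, adjusted p = 6.52e-07, edgeR). The groups were far apart. Exph5, a Rab27 effector related to the synaptotagmin-like proteins, fell from 121 ± 14.3 to 72.8 ± 10.7 CPM (SD, n = 4; −0.74, SE 0.114). Rab37 and Exph5 were the 2 genes of this list still called with the vascular and stromal covariate (−1.17, adjusted p = 0.00530, and −1.01, adjusted p = 0.0233).

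Of the 10 active zone proteins 3 were lower and 7 were not called, and the CAPS priming factors went opposite ways. The scaffolds Erc2 (−0.89, 27.6 ± 3.06 against 51.1 ± 1.21 CPM), Pclo (−0.95, 100 ± 27.8 against 194 ± 15.5 CPM) and Rimbp2 (−0.77, 244 ± 61.1 against 416 ± 19.6 CPM) were lower, without overlap (SD, n = 4). Cadps, or CAPS1, fell from 248 ± 16.9 to 171 ± 3.46 CPM (−0.54), while its relative Cadps2 rose from 39.8 ± 5.82 to 69.6 ± 7.95 CPM (0.81). The other 5 with the lowest adjusted p among higher genes were Stx11 (1.53), Vamp5 (0.91) and Syt15 (1.27), all under 12 CPM, Napb (0.59), a SNARE-recycling adaptor, and Myrip (0.73), a Rab27 effector that binds myosin. Adjusted p-values of these genes lay between 2.29e-05 and 0.00633 (edgeR). With the covariate their calls were lost, at −0.79 for Erc2, −0.62 for Pclo, −0.67 for Rimbp2, −0.59 for Cadps, 1.0 for Cadps2, 0.96 for Stx11, 0.55 for Vamp5, 0.88 for Syt15, 0.81 for Napb and 0.15 for Myrip.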

How the data were processed

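The deposited values are raw read counts per Ensembl mouse gene, 1 table per library. Per the submitters' processing notes, the build was mm39 and the tools included HTSeq 0.11.3 and STAR 2.7.10a; the use of strand in counting is not stated in them. Reads that HTSeq assigned to no counted feature (25.3% to 31.5% of each table) and ambiguous reads (3.74% to 4.36%) were left out. Symbols, exon lengths and overlaps came from GENCODE M21 on GRCm38, not the build of the counts. Exon bases are shared with an opposite-strand gene by 10 members (0.0790% to 14.5% of their length, among called genes Unc13a 3.92% and Syt7 5.13%) and with a same-strand gene by Rab27a (3.84%), so their counts are uncertain. Promoter windows are from RefSeq on GRCm38.p6.

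Groups were compared with edgeR 4.0.16 in R 4.3.3 (filterByExpr at a minimum count of 10, TMM, robust quasi-likelihood test, two-sided, group as the only term), with Benjamini-Hochberg adjustment over 20509 genes and calls at an adjusted p under 0.05. Paralogue ratios (0.5 counts added) were tested by exact permutation with SciPy 1.17.1. Alternatives were DESeq2 1.42.0, limma-voom (limma 3.58.1), other scalings and filters, a replicate block, 2 marker covariates and leaving out each library. Simulated data were used to test the edgeR fit first. Named genes are all members and the 6 other exocytosis genes per direction with the lowest adjusted p; the first 2 genes of each marker list, which the rule also selects, are given within their list's counts. The members, lists and rules were chosen with earlier results of these data known. Figures were drawn with matplotlib 3.10.9.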

Additional observations from a re-analysis of the deposited data

Results flagged for a closer look

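Within 98 groups of 4 values (each member and each paralogue ratio, TG and WT apart), 4 had a library whose gap to its nearest neighbour exceeded Dixon's 95% critical share of the group's range, and chance flags about 1 in 20 groups. Rab3c was 35.2 CPM in WT replicate 1 against 22.5 to 24.6 CPM in the other WT libraries. Syt2 was 20.9 CPM in WT replicate 3 against 13.8 to 14.4 CPM in the others. Stx2 was 38.9 CPM in TG replicate 4 against 49.7 to 51.4 CPM in the other TG libraries. The log2 ratio of Snap25 over Snap23 was 0.75 in TG replicate 1, the library with the highest acinar markers (44710 CPM), against 1.17 to 1.20 in the other TG libraries. The calls of Rab3c, Syt2 and Stx2 were kept without each of these libraries.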

How the results depend on the processing

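Over 17 alternatives for 56 named genes (952 values), 862 kept their direction and side of the threshold, 46 lost a call, 20 gained one and 24 changed sign, all 24 for genes not called. With the vascular and stromal covariate, 147 of all tested genes were called higher and 228 lower (2475 and 1654 without it), 0 and 2 members (6 and 11) and 0 and 2 other exocytosis genes (9 and 14); 11 members and 8 of the others had an unadjusted edgeR p under 0.05. The covariate's markers are themselves higher in TG, so its part and that of the group cannot be fully told apart. Leaving out 1 library gave 4 to 8 members higher and 9 to 13 lower, 7 to 9 and 11 to 15 other exocytosis genes, and 1691 to 2622 and 1122 to 2131 of all genes. Besides the sign changes given above for Cplx2, Syt4 and Snap25, members that were not called changed sign with the covariate (Rab3d −0.0044, Sytl2 −0.01, Stxbp3 −0.06, Cplx2 0.21, Snap25 0.31), with the acinar covariate (Cplx2 0.08, Snap25 0.09), with a filter of 1 CPM in 4 libraries (Sytl3 0.01, Snap25 0.01) and without single libraries (ranges −0.02 to 0.12 for Sytl1, −0.32 to 0.13 for Sytl3, −0.20 to 0.13 for Cplx2, −0.05 to 0.09 for Syt4, −0.15 to 0.02 for Stx4a, −0.10 to 0.06 for Snap25 and −3.3e-05 to 0.06 for Snap29); the cause was not tested. Deviations from the group means in same-numbered TG and WT libraries were hardly correlated (−0.044, 0.072, 0.017 and −0.005). Of the 4 TG libraries 2 matched their own number best. With 4 libraries per group this cannot exclude a shared litter or day, and the labels do not say what the numbers mark. The replicate block gave 8 members higher and 14 lower, with 2769 and 1904 of all genes. With it Rab3a (−0.57, adjusted p = 0.00306), Sytl2 (0.47, adjusted p = 0.0300), Sytl5 (−0.36, adjusted p = 0.0359), Cplx1 (1.08, adjusted p = 0.0314) and Vamp4 (−0.28, adjusted p = 0.0395) passed in edgeR. For the paralogue ratios the block leaves each difference unchanged by construction. Swapping groups within 4 pairs gives too few arrangements for any ratio to be called, so the block is no check on them. Without 1 library the ratio differences ran from −2.48 to −2.0 (Rab27a over Rab27b), −0.83 to −0.58 (Rab3a over Rab3d) and −0.51 to −0.33 (Vamp2 over Vamp8), where the smallest exact permutation p is 0.0571. Cplx1, Sytl3 and Doc2b had the largest standard errors of the members (0.422, 0.310 and 0.271) and were under 10 CPM in every library, as were Syt17 and Syt3 with smaller ones (0.186 and 0.181). That of Cplx1 was 0.312 without WT replicate 1.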
